A study of Mus musculus with 49 samples.

Results

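Blood cells of mice given oleic acid (OA) were compared at 24 h and at 18 h after the injection. The comparison rests on the 11 arrays, of 49 in all, whose labels give OA with an incubation of 24 h or 18 h. These arrays come from 8 of the 37 mice, with 6 arrays of 4 mice at 24 h and 5 arrays of 4 mice at 18 h. At both times the mice are numbered 2, 3, 5 and 6, and values per mouse are given in that order. The numbers run within a time, so a number marks different animals at 24 h and at 18 h.

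All mice were female wild-type C57Bl/6J animals 7 weeks old, anesthetized with xylazine and ketamine before OA or physiological serum was put into the tail vein. OA was given at 1.2 µl per g of body weight. Physiological serum, the control, was given to 2 mice at 24 h (mice 1 and 4) and 2 mice at 18 h (mice 1 and 4), which had 2 and 3 arrays. RNA of the sample labelled PBMC (peripheral blood mononuclear cells) was amplified linearly, labelled radioactively and hybridized to nylon filters with spotted mouse cDNA clones. The extraction text names lung where the tissue label names PBMC, and the kit is one for blood, so whether mononuclear cells were isolated first is not settled.

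Intravenous OA damages the capillaries of the lung and is used as a model of acute lung injury, in which neutrophils and monocytes of the blood are recruited to the lung. Blood also carries young red cells, which still hold RNA for membrane proteins, haem synthesis and antioxidant enzymes and lose it as they mature. The level of a gene in such a bulk sample depends on which cells are in it, and fewer cells of a type cannot be told apart here from less RNA per cell.

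Levels below are log2 normalized intensities of a clone, averaged over the arrays of a mouse, and changes are the 24 h mean minus the 18 h mean on that scale. A level compares mice for 1 clone and not one gene with another. Tests are limma's moderated test on 1 value per mouse, two-sided, with Benjamini-Hochberg adjustment over all 7739 clones and a threshold of 0.05. Nothing in the labels says that the mice of a group were treated together or apart, so the p-values measure only the spread between these mice. A clone counts as well above background on an array where it exceeded the median of the empty spots by 2.6 robust SDs, and the ceiling of the scanner values was 21815.

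The 11 arrays had a median clone intensity of 83 to 238, with 46.2% to 55.6% of clone spots well above background and 14 to 23 spots at the ceiling. After removal of each clone's mean, the 3 pairs of arrays from 1 mouse correlated across clones with r of 0.71 to 0.80, against a median of 0.38 for arrays of different mice at the same time. On the first principal component of all 37 mice, which held 36.2% of the variance, 7 mice stood apart from the rest. One of them is mouse 2 at 18 h, with a score of -43.96 against 7.77 to 15.54 for the other 7 OA mice compared here. Another is serum mouse 1 at 18 h. Results are therefore given with and without these mice where they carry weight.

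Of 7739 clones, 127 (1.64%) differed between 24 h and 18 h at an adjusted p under 0.05, of which 112 (1.45%) were higher and 15 (0.194%) lower at 24 h. The unadjusted p was under 0.05 for 1269 clones. The rises were the larger changes, with 75 of the 112 at 2-fold or more against 4 of the 15 falls, and median changes of 1.15 and -0.87. The largest change was that of the red cell anion exchanger Slc4a1. In 112 of the 127 clones the 24 h mice did not overlap the 18 h mice, which holds for 11.2% of all clones, a property that a low p makes likely.

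**Figure D1:**
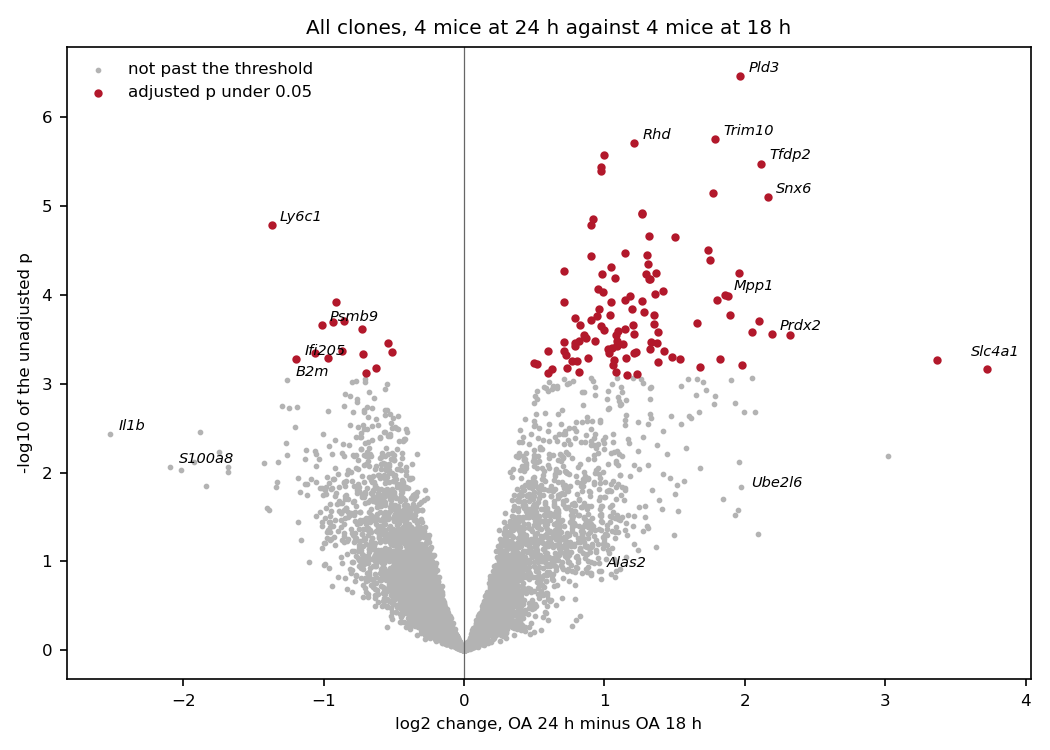
Each point is 1 of 7739 clones, with the log2 change (OA 24 h minus OA 18 h) on the horizontal axis and -log10 of limma's unadjusted p on the vertical axis. Red points are the 127 clones with an adjusted p under 0.05, of which 112 lie to the right of 0, and Slc4a1 has the largest change.

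The count depended on single mice. It was 68 without mouse 2 at 18 h, 68 without mouse 3 at 18 h, 9 without mouse 6 at 18 h, 10 without mouse 2 at 24 h, 15 without mouse 6 at 24 h and 212 without mouse 5 at 24 h. In each of these 6 fits all 127 clones kept the direction of their change. Without all 7 mice that stood apart, 108 of the 127 remained past the threshold among 230 calls. With the spread estimated from the 8 mice alone, 15 clones passed, 11 of them among the 127.

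Genes of the red cell membrane and of red cell formation were higher at 24 h. Of 28 measured members of an erythroid list, 8 rose and none fell when each gene is represented by its brightest clone. Of all 5880 genes 1.73% passed so, 1.58% rising and 0.153% falling. The list's median change was 0.36, against -0.03 for all genes, and 20 of the 28 had a positive change. The 8 are Slc4a1, Mpp1, Trim10, Rhd, Tfrc, Urod, Klf1 and Car1. Over the 26 members not at the ceiling, the mean level relative to the average of all 37 mice was 0.74, 0.53, 0.28 and 0.71 in the 24 h mice, against -0.19, -0.09, 0.15 and -0.21 in the 18 h mice. Every 24 h mouse was above every 18 h mouse, and mouse 5 was the lowest of the 24 h mice and the highest of the 18 h mice. The number of members that rose was 4 without mouse 2 at 18 h, 3 without mouse 3 at 18 h and 2 without mouse 6 at 18 h, mouse 2 at 24 h or mouse 6 at 24 h. It was 5 without mouse 3 at 24 h and 7 without the 7 mice that stood apart. With the spread estimated from the 8 mice alone none of the 28 passed.

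Slc4a1 encodes band 3, the chloride and bicarbonate exchanger that anchors the red cell skeleton to the membrane. Its level was 13.36, 12.14, 12.33 and 13.48 in the 24 h mice, against 7.95, 9.17, 10.91 and 8.37 in the 18 h mice. The lowest 24 h mouse lay above the highest 18 h mouse, and mouse 5 at 18 h was nearest to the 24 h range. The mean rose 13.2-fold (log2 change 3.73 ± 0.98 SE, adjusted p = 0.0438), and the second clone of the gene rose by 3.37 (adjusted p = 0.039). The call depended on single mice: the change lay between 3.34 and 4.33 when 1 of the 8 mice was left out, and its adjusted p between 0.0310 and 0.171. It passed only without mouse 5 at either time, and the p was 0.130 without mouse 2 at 18 h. It was 0.0436 without the 7 mice that stood apart and 0.0512 with the 8 mice alone.

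Mpp1, the membrane skeleton protein p55 that links glycophorin C to the red cell skeleton, was at 9.77, 11.08, 8.69 and 10.65 at 24 h, against 8.42, 7.97, 7.95 and 8.40 at 18 h. The 18 h mice lay close together and the 24 h mice were spread widely, with mouse 5 just above the 18 h range. The rise was 3.63-fold (1.86 ± 0.41 SE, adjusted p = 0.0211), and its adjusted p reached 0.0894 when 1 of the 8 mice was left out. Trim10, a RING finger protein needed for the terminal maturation of erythroid cells, was at 9.77, 9.68, 8.84 and 9.96 at 24 h, against 7.38, 7.70, 8.38 and 7.65 at 18 h. It rose 3.45-fold (1.79 ± 0.30 SE, adjusted p = 0.00446), with 3 of the 5 arrays at 18 h well above background, and its adjusted p stayed between 0.00095 and 0.0375 when any 1 of the 8 mice was left out (0.0512 with the 8 mice alone).

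Rhd, the Rh blood group protein of the red cell membrane, was at 8.02, 7.18, 7.13 and 7.87 at 24 h, against 5.98, 6.50, 6.71 and 6.16 at 18 h. At 24 h 4 of 6 arrays were well above background, and at 18 h none was, so its rise (adjusted p = 0.00446) is at least 1.13-fold, while the measured means of 7.55 and 6.34 differ by 1.21. Tfrc, the transferrin receptor that brings iron into cells, rose 1.98-fold (adjusted p = 0.0162), with 9.74, 8.63, 8.56 and 9.71 at 24 h against 8.28, 8.24, 8.02 and 8.17 at 18 h. Klf1, a transcription factor of erythroid genes, and Car1, a carbonic anhydrase of red cells, passed the test with means of 7.43 and 7.18 at 24 h, against 6.64 and 6.40 at 18 h. Neither was well above background on any 18 h array, so that the rise of Klf1 is at least 1.03-fold. For Car1, well above background on 1 of 6 arrays at 24 h, the bound is under 1 and no fold is given. Urod, an enzyme of haem synthesis, rose 2.04-fold to a mean of 8.30 at 24 h, against 7.28 at 18 h (adjusted p = 0.0357), and its groups overlapped. Klf1 and Urod were named after their values were seen.

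**Figure D2:**
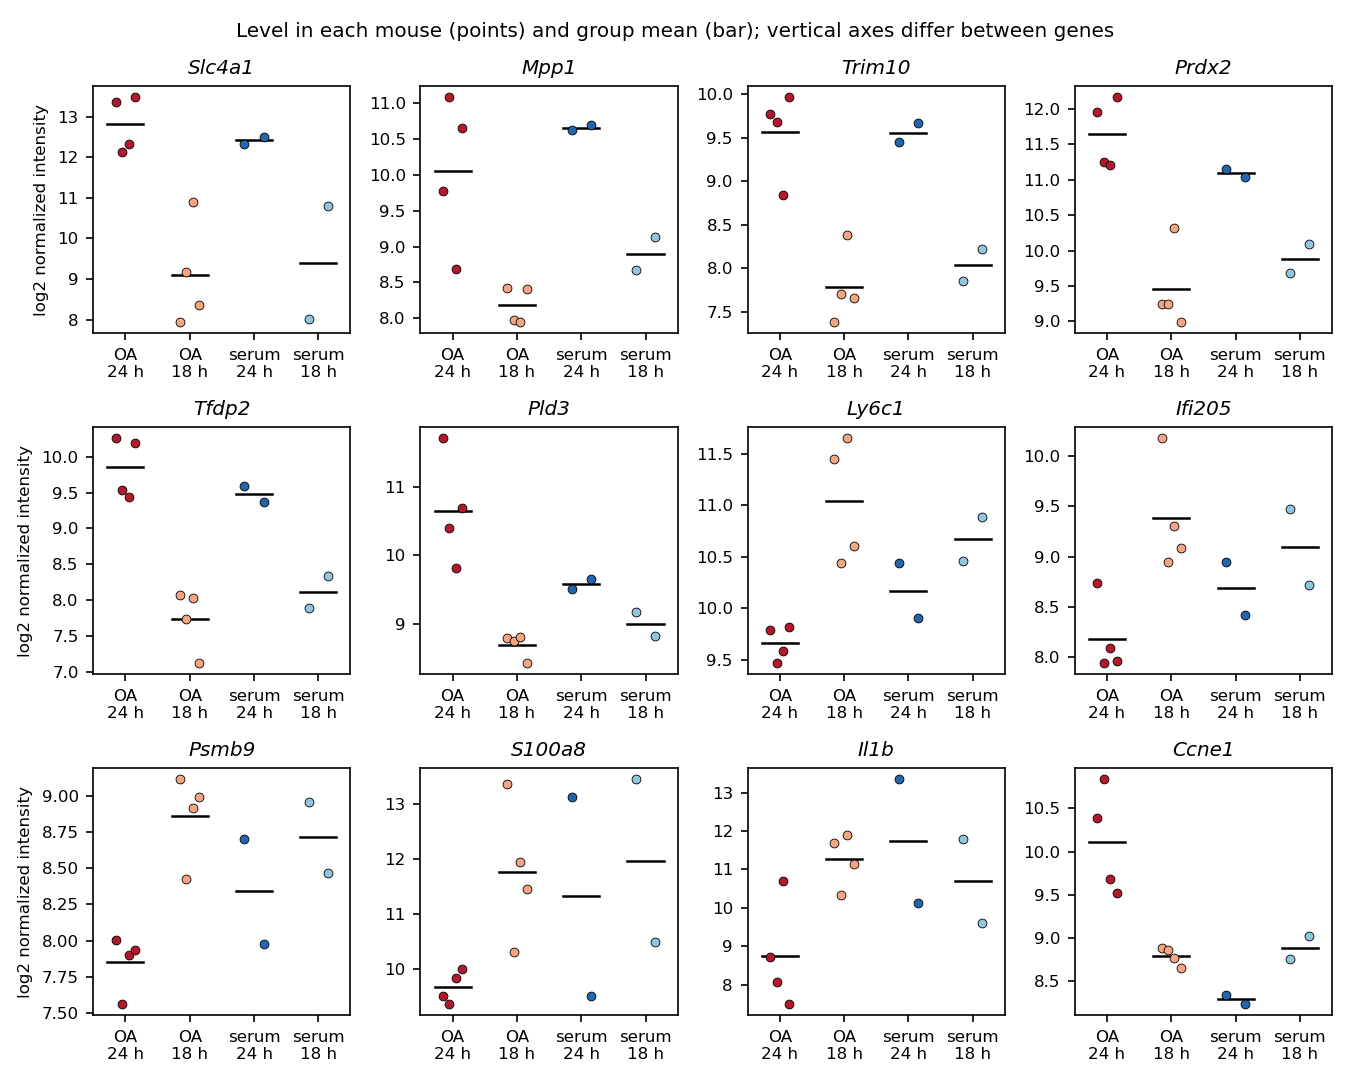
Each panel gives 1 gene, with the log2 normalized intensity on the vertical axis and the groups OA 24 h, OA 18 h, serum 24 h and serum 18 h from left to right; points are mice and bars are group means. For Slc4a1, Mpp1, Trim10, Prdx2, Tfdp2, Pld3 and Ccne1 every OA mouse at 24 h lies above every OA mouse at 18 h, for Ly6c1, Ifi205, Psmb9 and S100a8 below, and for Il1b the 2 groups overlap.

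The other erythroid members did not pass. The clones of Hba-a1 and Hbb-b1, the haemoglobin chains, were at the ceiling on all 11 arrays, and their change cannot be read. Alas2, the first enzyme of haem synthesis in red cells, was bright in both groups, with 14.29, 13.97, 14.28 and 14.13 at 24 h against 12.78, 13.78, 13.78 and 12.52 at 18 h. The 2 groups did not overlap, but its change of 0.96 ± 0.61 SE did not pass (adjusted p = 0.453). Among 9 measured genes of red cell maturation and mitochondrial clearance, none passed, against the same 1.58%. Their median was 0.20, and it was -0.10 without mouse 2 at 18 h. Ube2l6, a ubiquitin-conjugating enzyme abundant in red cells and also induced by interferon, had a change of 1.97 ± 0.76 SE (adjusted p = 0.187). Bcl2l1, which encodes the survival protein Bcl-xL, had 0.75 ± 0.25 SE (adjusted p = 0.115).

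The upstream regions of 3 of these genes are shown because the members rose together and each holds 1 match to the letters recognised by GATA factors, the class that includes the erythroid regulator Gata1. They span 250 bases before to 50 bases after the annotated start (RefSeq, GRCm38.p6, 5′ to 3′ on the gene's strand), with the match in capitals. Trim10 lies at chr17:36869324-36869623 on the plus strand, Mpp1 at chrX:75130967-75131266 on the minus strand and Rhd at chr4:134864286-134864585 on the plus strand.
Trim10: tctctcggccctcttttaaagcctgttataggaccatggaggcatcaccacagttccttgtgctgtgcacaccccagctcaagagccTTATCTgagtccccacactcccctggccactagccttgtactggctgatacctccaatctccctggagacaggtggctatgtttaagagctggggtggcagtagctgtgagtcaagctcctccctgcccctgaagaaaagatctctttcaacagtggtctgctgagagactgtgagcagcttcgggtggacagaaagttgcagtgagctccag
Mpp1: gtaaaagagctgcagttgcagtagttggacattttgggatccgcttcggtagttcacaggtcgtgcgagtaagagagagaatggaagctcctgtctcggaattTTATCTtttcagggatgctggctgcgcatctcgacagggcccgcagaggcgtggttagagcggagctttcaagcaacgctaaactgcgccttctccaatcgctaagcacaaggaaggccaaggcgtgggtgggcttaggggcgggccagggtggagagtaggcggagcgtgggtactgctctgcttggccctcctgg
Rhd: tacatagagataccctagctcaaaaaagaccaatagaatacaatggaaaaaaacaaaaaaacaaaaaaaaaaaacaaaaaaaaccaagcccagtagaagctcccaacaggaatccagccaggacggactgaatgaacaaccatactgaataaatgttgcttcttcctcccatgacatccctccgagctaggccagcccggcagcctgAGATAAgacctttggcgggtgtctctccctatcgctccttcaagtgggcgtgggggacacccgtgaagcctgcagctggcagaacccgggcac
The letters searched were AGATAA on both strands, with T also allowed in place of the first A and G in place of the last. Such a match was found in 22.9% of 105 upstream regions of genes with a clone that rose, in 19.4% of 5946 regions of genes on the array and in 29.8% of all 32851 regions. The letters CCNCNCCC, a form of the CACCC box that Klf1 binds, were found in 70.5%, 68.0% and 49.5% of the same sets. Both shares in the genes that rose are near those of the genes on the array. A match describes letters in this window and is not a binding site.

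Some enzymes of antioxidant defence were also higher. The oxidative stress list had a median change of 0.23. Of its 33 measured members, 4 rose (Prdx2, Glrx5, Glo1 and Mgst3) and none fell, against 1.58% and 0.153% of all genes. The count was 1 without mouse 2 at 18 h, 0 without mouse 3 or mouse 6 at 18 h or without mouse 2 or mouse 6 at 24 h, and 3 without the 7 mice that stood apart. With the 8 mice alone 1 member passed. The median was 0.07 without mouse 2 at 18 h, and also without the 7 mice that stood apart. In the serum mice over the same interval it was 0.23, with 20 positive changes against 19 in OA mice. Prdx2, a peroxiredoxin and one of the most abundant proteins of red cells, was at 11.95, 11.25, 11.21 and 12.16 at 24 h, against 9.25, 9.25, 10.32 and 9.0 at 18 h. All 24 h mice were higher, and the rise was 4.56-fold (2.19 ± 0.53 SE, adjusted p = 0.0301). Glrx5, a mitochondrial glutaredoxin of iron-sulfur cluster assembly on which haem synthesis depends, was at 12.11, 10.80, 10.56 and 11.40 at 24 h, against 8.53, 9.53, 10.18 and 8.70 at 18 h, and rose 3.95-fold (adjusted p = 0.0415).

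Glo1, the glyoxalase that detoxifies methylglyoxal, rose 2.13-fold (adjusted p = 0.0298). Mgst3, a microsomal glutathione transferase, passed the test (adjusted p = 0.0328) with means of 7.65 at 24 h and 6.83 at 18 h. It was not well above background on any 18 h array, and its rise is at least 1.2-fold. Gpx1, the selenium enzyme that reduces hydrogen peroxide, was at 14.41, 14.39, 14.41 and 14.41 at 24 h, with 5 of 6 arrays at the ceiling, against 13.65, 12.59, 14.02 and 12.40 at 18 h. The groups did not overlap, the ceiling limits the difference that can be measured, and the change of 1.24 ± 0.67 SE did not pass (adjusted p = 0.358).

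Several of the largest rises were of genes outside these lists. Kcnn4, the calcium-activated potassium channel that dehydrates red cells, was at 11.43, 9.85, 9.94 and 10.80 at 24 h, against 8.11, 8.02, 8.68 and 7.93 at 18 h, a 4.99-fold rise (adjusted p = 0.0301). Snx6, a sorting nexin of the retromer, rose 4.48-fold (adjusted p = 0.00682), with 12.37, 10.85, 10.66 and 11.78 at 24 h against 9.11, 9.43, 9.74 and 8.73 at 18 h. Tfdp2, a partner of cell cycle transcription factors, was at 10.26, 9.54, 9.44 and 10.20 at 24 h, against 8.08, 7.75, 8.03 and 7.13 at 18 h. It rose 4.33-fold (2.11 ± 0.37 SE, adjusted p = 0.00446) and remained past the threshold whichever of the 8 mice was left out. In the same fits the adjusted p of Kcnn4 reached 0.167 and that of Snx6 0.0664. In Kcnn4, Snx6 and Tfdp2 mice 2 and 6 were the highest at 24 h.

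Pld3, a lysosomal nuclease of the phospholipase D family, had the smallest p of the comparison. It was at 11.72, 10.40, 9.82 and 10.70 at 24 h, against 8.79, 8.74, 8.81 and 8.43 at 18 h, a 3.90-fold rise (1.96 ± 0.30 SE, adjusted p = 0.00267). The 18 h mice lay close together (SD 0.18), while the 24 h mice were spread more widely (SD 0.80), with mouse 2 the highest. Cmas, which activates sialic acid for the coats of cell surfaces, rose 3.68-fold (adjusted p = 0.0211), and Gda, a guanine deaminase, 4.15-fold (adjusted p = 0.0298). Alox12b, a lipoxygenase known for its role in the skin barrier, rose 4.29-fold (adjusted p = 0.0279), although its other clone had a change of the opposite sign. Btrc, the substrate receptor of a ubiquitin ligase, rose 3.49-fold (adjusted p = 0.0213). Both were well above background on all 6 arrays at 24 h, but Alox12b on 2 and Btrc on 1 of the 5 arrays at 18 h, so these folds are set against levels mostly not above background. With 1 of the 8 mice left out, the adjusted p reached 0.116 for Cmas, 0.159 for Gda, 0.132 for Alox12b and 0.130 for Btrc. For Pld3 it reached 0.0234.

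Genes of translation, protein turnover and the cell cycle passed the test singly, where 1.58% of all genes rose. Eif5, a translation initiation factor, was at 12.80, 11.60, 11.50 and 12.49 at 24 h, against 10.94, 9.73, 10.45 and 10.33 at 18 h, and rose 3.33-fold (adjusted p = 0.0142). It was 1 of 44 measured translation factors to do so, and the list's median was -0.12. Of 28 ubiquitin conjugation genes 2 rose, Ube2b (2.32-fold, adjusted p = 0.0357), for which a second clone also rose, and Ube3b (adjusted p = 0.0279). Ube3b was not well above background on any 18 h array, and its rise is at least 1.6-fold. Of 71 cell cycle genes 2 rose, Ccne1 and Nusap1, and the list's median was 0.00. Ccne1, the cyclin of entry into S phase, was at 10.38, 10.84, 9.68 and 9.52 at 24 h, against 8.88, 8.86, 8.76 and 8.65 at 18 h, a 2.49-fold rise (adjusted p = 0.0108). Nusap1, a spindle protein, rose 2.79-fold (adjusted p = 0.0384). Both lists had 0 calls without mouse 6 at 18 h or mouse 2 at 24 h. The ubiquitin list also had none without mouse 3 at 18 h or mouse 6 at 24 h, 1 without mouse 2 or mouse 5 at 18 h and 3 without mouse 5 at 24 h. The cell cycle list had 1 without mouse 2 or mouse 3 at 18 h or without mouse 3 or mouse 6 at 24 h, and 5 without mouse 5 at 24 h.

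Other lists held at most 1 gene that rose, against the same 1.58% of all genes. Ndufs3, a subunit of respiratory complex I, rose by 1.38 ± 0.33 SE on the log2 scale (adjusted p = 0.0298) among 63 respiratory chain genes with a median of -0.11, and its other clone had the opposite sign. Acsl1, which joins fatty acids to coenzyme A, rose 2.08-fold (adjusted p = 0.0353) among 30 genes of fatty acid oxidation with a median of 0.04. It was at 10.41, 9.65, 9.19 and 10.22 at 24 h, against 9.29, 8.71, 8.94 and 8.31 at 18 h, and the groups overlapped. Ctsb, a lysosomal protease, rose by 1.38 ± 0.36 SE on the log2 scale (adjusted p = 0.0393) among 37 lysosomal genes with a median of -0.14. Casp12, a caspase of the inflammatory group, passed the test (adjusted p = 0.0211) among 36 apoptosis genes with means of 7.36 at 24 h and 6.40 at 18 h, and no fold is given because no 18 h array was well above background and the bound is under 1. None of these single genes, nor Eif5, passed without mouse 6 at 18 h or without mouse 2 or mouse 6 at 24 h. Acsl1 also failed without mouse 3 or mouse 5 at 18 h, and Ndufs3 without mouse 2 at 18 h. Ctsb also failed without mouse 2 or mouse 3 at 18 h and without mouse 3 at 24 h. With the 8 mice alone Ndufs3 passed and the others did not.

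The falls were fewer and smaller, and 0.153% of all genes fell. Ly6c1, a surface protein of inflammatory monocytes and of some T cells, was at 9.79, 9.47, 9.59 and 9.82 at 24 h, against 11.45, 10.44, 11.65 and 10.60 at 18 h. It fell 2.58-fold (-1.37 ± 0.26 SE, adjusted p = 0.00915) and stayed past the threshold whichever of the 8 mice was left out (adjusted p up to 0.0476). It did not pass in every other alternative of the processing. Close copies such as Ly6c2 can bind the same spotted cDNA, and the same holds for the Ifi200, ribosomal protein and cyclophilin families below. Of 17 monocyte and macrophage genes Ly6c1 alone passed, the list's median was -0.17, and the defining markers Csf1r and Cd14 had changes of 0.11 ± 0.23 SE and -0.17 ± 0.22 SE. Cd14 was not well above background on any of the 11 arrays. Ccr2, the receptor that draws these monocytes to inflamed tissue, was at 8.18, 8.13, 7.69 and 7.97 at 24 h, against 10.65, 8.39, 9.11 and 9.10 at 18 h (change -1.32 ± 0.46 SE, adjusted p = 0.142).

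Ifi205, an interferon-induced protein of the Ifi200 family, was at 8.74, 7.94, 8.09 and 7.96 at 24 h, against 10.18, 8.95, 9.30 and 9.09 at 18 h, and fell 2.29-fold (adjusted p = 0.0384). Psmb9, the interferon-induced catalytic subunit of the immunoproteasome, was at 8.01, 7.56, 7.90 and 7.93 at 24 h, against 9.12, 8.43, 8.92 and 8.99 at 18 h. It fell 2.02-fold (-1.01 ± 0.24 SE, adjusted p = 0.0279), and no 24 h mouse reached the 18 h range. These were the 2 of 24 interferon-stimulated genes that fell, and none rose. The list's median was -0.36 with 18 negative changes, and in 11 of the 24 the groups did not overlap, against 11.6% of all genes (6.79% higher and 4.85% lower at 24 h). Neither passed without mouse 2, mouse 5 or mouse 6 at 18 h, without mouse 2, mouse 3 or mouse 6 at 24 h, or with the 8 mice alone. Ifi205 also failed without mouse 5 at 24 h.

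B2m, the light chain of MHC class I, was just short of the threshold (adjusted p = 0.0512). It was at 11.11, 13.23, 13.39 and 13.07 at 24 h, against 14.20, 13.70, 13.87 and 14.09 at 18 h, with mouse 2 at 24 h far below the rest. Psmb9 was the only one of 11 MHC class I genes past the threshold. Among 31 proteasome genes, Psmb9 and Psma7, a subunit of the core particle, fell, and the median was -0.18. Psma7 fell 1.66-fold (adjusted p = 0.0292). The proteasome count was 1 without mouse 2 or mouse 3 at 18 h and 0 without mouse 5 or mouse 6 at 18 h or without mouse 2, mouse 3 or mouse 6 at 24 h.

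**Figure D3:**
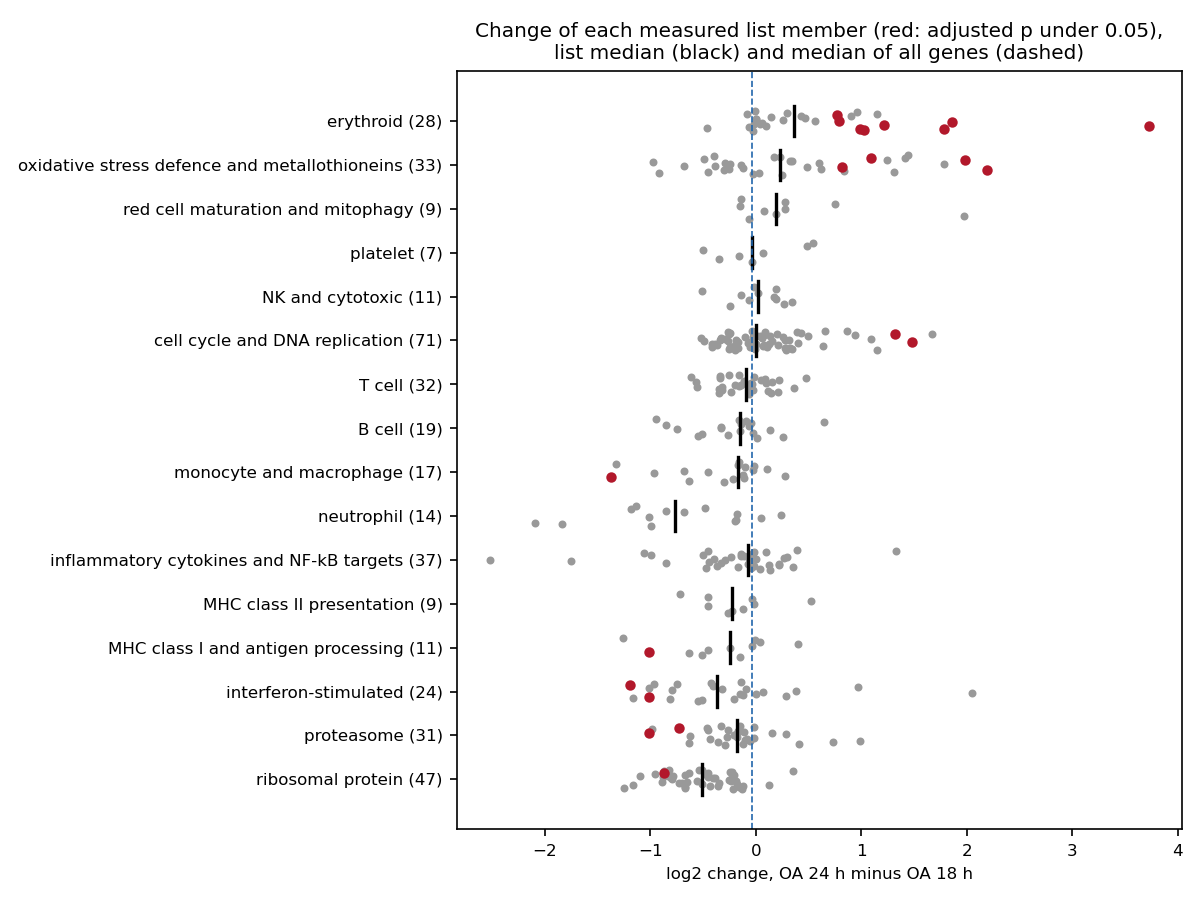
Each point is a measured member of a gene list at its log2 change between OA 24 h and OA 18 h, red where the adjusted p is under 0.05; black ticks are list medians and the dashed line is the median of all genes (-0.03). The number measured is in brackets, with 8 red points above 0 among 28 erythroid genes and medians of -0.76 for neutrophil and -0.51 for ribosomal protein genes.

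Of 47 ribosomal protein genes 45 had a negative change, with a median of -0.51 (-0.38 after median scaling). Nemf, a factor that rescues stalled ribosomes, fell 1.81-fold (adjusted p = 0.0279), Slc25a5, the ADP and ATP carrier of mitochondria, 1.65-fold (adjusted p = 0.036), and Ms4a4c, a membrane protein of the Ms4a family, 1.88-fold (adjusted p = 0.0213). When 1 of the 8 mice was left out, these adjusted p reached 0.124, 0.167 and 0.104. Further falls, named after their values were seen, were clones of Rps16, Ppia, Ddx17, Ms4a6d, Anapc4, Synrg and Gata2, of which the last 4 were not well above background on any 24 h array. Both other clones of Gata2 and 1 of 2 of Ms4a6d had a change of the opposite sign.

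Some neutrophil and inflammatory genes had large changes that did not pass. S100a8 and S100a9, the 2 subunits of calprotectin and abundant in neutrophils, had changes of -2.09 ± 0.74 SE (adjusted p = 0.151) and -1.83 ± 0.70 SE (adjusted p = 0.186). S100a8 was at 9.52, 9.37, 9.84 and 10.00 at 24 h, against 13.37, 10.32, 11.94 and 11.47 at 18 h. The 24 h mice lay close together below a widely spread 18 h group in which mouse 2 was the highest. Without mouse 2 at 18 h the changes of S100a8 and S100a9 were -1.56 (adjusted p = 0.392) and -1.42 (adjusted p = 0.424). Of 14 neutrophil genes none passed, 12 had a negative change and the median was -0.76 (-0.53 without mouse 2 at 18 h). Their mean level relative to all mice was -0.75, -0.83, -0.57 and -0.75 at 24 h, against 0.59, -0.65, 0.22 and -0.06 at 18 h. Ltf, the lactoferrin of neutrophil granules, was dim and had a change of 0.05 ± 0.25 SE. Anxa1, an anti-inflammatory protein induced by glucocorticoids, had -1.13 ± 0.43 SE (adjusted p = 0.180).

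Il1b, the fever-inducing cytokine, had a change of -2.52 ± 0.80 SE (adjusted p = 0.103). It was at 8.73, 8.08, 10.70 and 7.50 at 24 h, against 11.69, 10.33, 11.89 and 11.15 at 18 h. Mouse 5 at 24 h reached the 18 h range, and without it the adjusted p was 0.029. Il1b did not pass when any other single OA mouse was left out, nor without the 7 mice that stood apart. Ccl3, a chemokine for monocytes, had a change of 1.32 ± 0.37 SE (adjusted p = 0.0541), and its other clone had the opposite sign. None of 37 inflammatory genes passed, and the median was -0.07. Junb, an immediate-early transcription factor, had -0.15 ± 0.71 SE (adjusted p = 0.957). Among clock genes Arntl (Bmal1) had 0.99 ± 0.32 SE (adjusted p = 0.111), and none of 14 passed.

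Among genes of other blood cells, none of 32 T cell, 19 B cell, 11 natural killer and 7 platelet genes passed, with medians of -0.09, -0.15, 0.02 and -0.03 (-0.29 for B cell genes without mouse 2 at 18 h). Among the defining markers, Cd3e, Cd3d, Cd79b, Ncr1, Itga2b, Pf4 and Ppbp were well above background on all 11 arrays, and Prf1 on none. Cd74, the invariant chain of MHC class II, had a change of -0.45 ± 0.38 SE (adjusted p = 0.598). The T cell gene Cd8a had a change of -0.56 ± 0.20 SE (adjusted p = 0.145). Of 10 lung epithelium and endothelium genes none passed, with a median of 0.15 (0.06 without mouse 2 at 18 h). The part of the neutrophil, monocyte and red cell shares in the results above was not tested.

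The same interval was set in the serum mice, 2 against 2, which share no animal with the OA mice. No clone passed there (smallest adjusted p = 0.633), 412 (5.32%) had an unadjusted p under 0.05, and the median SE of a change was 0.33 against 0.23 in OA mice. Of the 112 clones that rose in OA mice, 101 had a positive change in serum mice, where 48.7% of all clones did, and 23 had an unadjusted p under 0.05 in that direction. These counts moved with single serum mice. Without mouse 1 at 18 h, which stood apart, 86 clones had an unadjusted p under 0.05, and without mouse 4 at 18 h 1398. Without mouse 1 at 24 h the number was 221, and without mouse 4 at 24 h 529. In these 4 fits 87 to 106 of the 112 had a positive change, and 4 to 27 of them an unadjusted p under 0.05. The median change of the 112 was 1.15 in OA mice and 0.44 in serum mice. These clones were chosen by their OA change, which favours a larger value there. The 2 medians therefore do not compare OA with serum. Of the 15 that fell, 11 had a negative change in serum mice, where 51.3% of all clones did.

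Slc4a1 was at 12.34 and 12.49 in the serum mice at 24 h, against 8.02 and 10.79 at 18 h. Mpp1 was at 10.63 and 10.69 in the serum mice at 24 h, against 8.67 and 9.13 at 18 h, and Trim10 at 9.45 and 9.66, against 7.85 and 8.22. In all 3 genes, which are among those that rose in OA mice, both serum mice at 24 h were above both at 18 h. The share of all clones with such an order in 2 against 2 mice was not counted, so this is a description and not a test. The changes in serum mice were 3.01 ± 1.38, 1.76 ± 0.58 and 1.52 ± 0.42 (SE), and the OA change exceeded them by 0.71 ± 1.69, 0.10 ± 0.71 and 0.26 ± 0.52 (SE). Without serum mouse 1 at 18 h the serum changes were 1.62 ± 1.66, 1.53 ± 0.72 and 1.33 ± 0.52 (SE), and the excess of the OA change was 2.10 ± 1.92, 0.33 ± 0.83 and 0.45 ± 0.60 (SE). For Slc4a1 the serum change was 4.40 ± 1.66 SE without serum mouse 4 at 18 h instead.

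**Figure D4:**
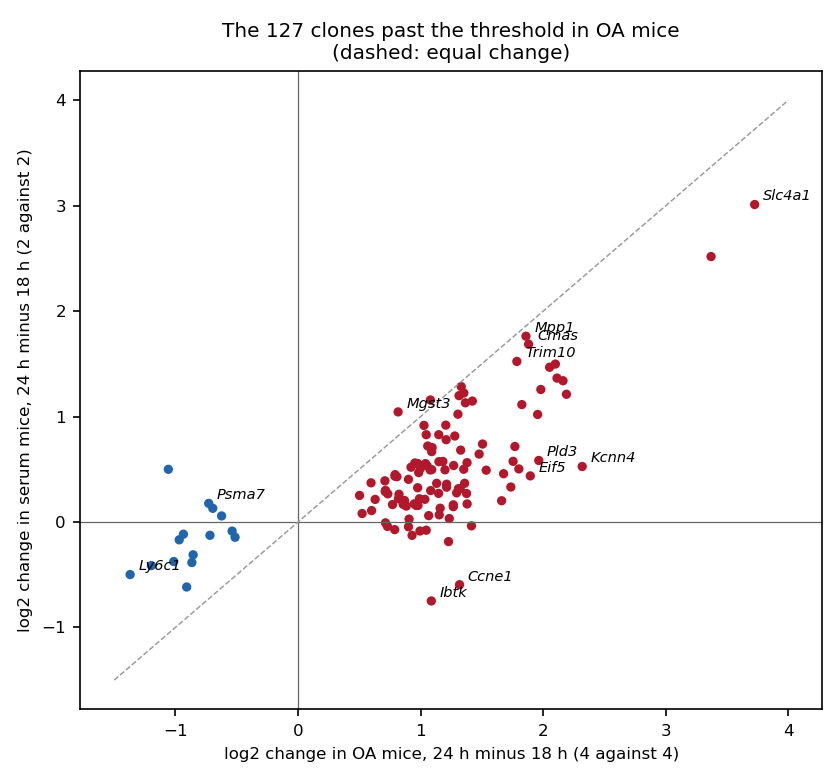
Each point is 1 of the 127 clones past the threshold in OA mice, with its log2 change between 24 h and 18 h in OA mice on the horizontal axis and in serum mice on the vertical axis. Of the 112 red points (rises), 101 lie above 0 on the serum axis, and 110 lie below the dashed line of equal change. The clones were chosen by their OA change, which by itself favours points below that line.

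No clone had a change that differed between OA and serum at an adjusted p under 0.05 (smallest adjusted p = 0.978), and 328 did at an unadjusted p under 0.05, among them 33 of the 127. Ccne1 had the smallest p of this test among the genes described. It was at 8.34 and 8.24 in the serum mice at 24 h, against 8.75 and 9.02 at 18 h, so that the OA change exceeded the serum change by 1.91 ± 0.45 SE (unadjusted p = 0.000207, adjusted p = 0.978). For Pld3 the excess was 1.38 ± 0.52 SE (unadjusted p = 0.0122, adjusted p = 0.978). For Il1b it was -3.54 ± 1.38 SE (unadjusted p = 0.0156, adjusted p = 0.978), with 13.35 and 10.11 in the serum mice at 24 h, against 11.80 and 9.61 at 18 h. When 1 serum mouse was left out, the excess of Il1b lay between -5.16 and -1.93, with an unadjusted p of 0.209 without mouse 1 at 24 h and 0.129 without mouse 4 at 18 h. The number of clones with an unadjusted p under 0.05 for the difference lay between 162 and 812 in the same fits.

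Set in the full series of times, the rises had the shape of a step at 24 h. In 111 of the 112 clones that rose, the mean of the OA mice at 24 h was the highest of the 6 OA times, which holds for 21.8% of all clones. Choosing clones by their 24 h and 18 h values favours such a maximum, so it is a description and not a test. In serum mice the 24 h mean was the highest of the 6 serum times in 73 of the 112, against 15.4% of all clones. The median OA level of the 112 at 18 h lay 0.07 below the mean of 1 to 4 h, while that at 24 h lay 1.07 above it. Slc4a1 averaged 9.08, 9.27, 9.47, 9.23, 9.10 and 12.83 in OA mice at 1, 1.5, 3, 4, 18 and 24 h. In serum mice it averaged 9.97, 9.70, 10.84, 8.03, 9.40 and 12.41 at the same times. The 4 h and 3 h groups hold 5 of the 7 mice that stood apart.

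The falls were of another shape. In 13 of the 15 clones the OA mean at 18 h was the highest of the 6 times, and in 11 that at 24 h was the lowest. Their median level lay 0.35 above the mean of 1 to 4 h at 18 h and 0.40 below it at 24 h. Ly6c1 averaged 10.10, 10.49, 10.61, 9.86, 11.04 and 9.67 in OA mice over the 6 times, so part of the difference was a high level at 18 h. Psmb9 averaged 8.40, 8.66, 8.29, 8.33, 8.86 and 7.85. Since these clones were chosen by the 24 h and 18 h values, such extremes are a description and not a test.

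**Figure D5:**
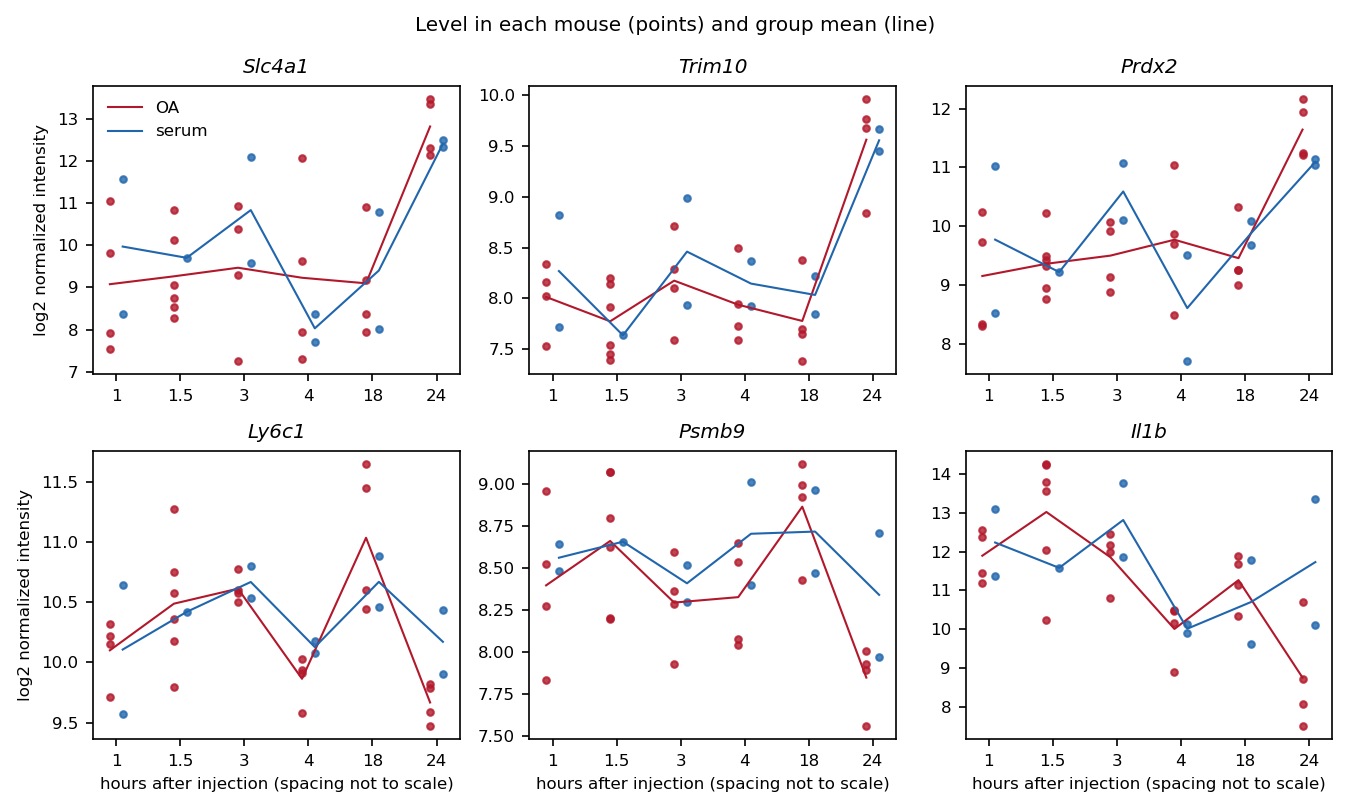
Log2 normalized intensity of 6 genes against hours after injection (spacing not to scale), with mice as points and group means as lines, OA in red and serum in blue. Slc4a1, Trim10 and Prdx2 are highest at 24 h in OA mice, Ly6c1 and Psmb9 have their highest OA mean at 18 h and their lowest at 24 h, and Il1b is lowest at 24 h in OA mice, where its mean was 8.75.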

How the data were processed

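Each array file holds spot intensities on a linear scale, 1 value for a spot and none for background, as the authors deposited them. Per the file headers of the scanner output, the program was BZscan and the signal is that within a constant diameter. A table of log2 values, quantile normalized by the authors over the 49 arrays per the file headers, served as an alternative.

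Intensities of 7771 clone spots per array were log2 transformed and quantile normalized over 49 arrays. Spots were averaged to 7739 clones, and the arrays of a mouse to 1 value. Symbols came from the files, updated through RefSeq (GRCm38.p6): 6430 clones matched a current symbol and 1039 a synonym. limma 3.58.1 in R 4.3.3 fitted a mean for each of the 12 groups (25 residual degrees of freedom), so that all mice share 1 spread. The code was tested on simulated data.

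The comparison, the 30 lists and the naming rule were chosen with earlier results of these data known. The rule names the 12 largest rises and falls past the threshold that are well above background on at least 0.5 of the arrays of the higher group, filled up by p where fewer pass. It adds up to 4 passing members of a list, or the 2 with the smallest p where none passes, and 13 fixed genes. A fold given as "at least" sets the brighter mean against the lowest signal well above background on each array of the other group. Some genes that the rule or the marker lists name are not reported here. Alternatives changed the scaling, background, filter, model and mice.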

Additional observations from a re-analysis of the deposited data

Results flagged for a closer look

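In 5 of the 148 groups of 4 mice looked at (74 named genes at 2 times), 1 mouse lay far from the other 3, which were close together. Chance gives such a gap in about 1 in 20 groups. At 24 h, B2m was 11.11 in mouse 2, against 13.07 to 13.39 in the others. Anxa1 was 8.32 in mouse 3 at 24 h, against 8.18 to 8.19, and Mt1, a metallothionein, was 9.29 in mouse 2, against 9.61 to 9.65. Gpx1 was 14.39 in mouse 3 at 24 h, against 14.41 in the others, which were at the ceiling. At 18 h, Npm1, a nucleolar protein, was 7.74 in mouse 5, against 6.29 to 6.47. None of the 5 was in mouse 2 at 18 h, the mouse that stood apart over all clones.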

How the results depend on the processing

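The count of 127 clones was within 1.5 times after median scaling, with the authors' table, with normexp background correction, without dim clones and with a trended robust prior (104 to 145). Median scaling gave 139 rises and 6 falls, against 112 and 15. The count was 309 (229 rises, 80 falls) with all arrays and the mouse as a random block, 15 with only the groups compared, which leaves fewer mice for the spread, 23 with quantile normalization over the 11 arrays alone and the same mice, and 230 (165 rises, 65 falls) without the 7 mice apart, a setting chosen after seeing the data. Leaving out 1 mouse gave 9 to 212 clones. All 127 kept their direction in every alternative in which they were tested. For serum mice the count of 0 became 0 to 13, and for the difference between OA and serum 0 to 10, when 1 mouse was left out, where a lone serum mouse is assumed to vary like the other groups. In the other alternatives run both were 0. The replicate block gave 57 clones. Same-numbered mice did not deviate together (r of 0.12, 0.05, -0.01 and -0.07), so the numbers do not pair the mice. Of 35 named genes past the threshold, none changed direction in any alternative. Of these, 30 still passed with the authors' table, 31 after median scaling and 31 without the 7 mice apart, against 6 with only the groups compared and 5 without mouse 6 at 18 h or mouse 2 at 24 h. The causes of these shifts were not tested beyond the loss of mice. Clones near the empty spots limit the rest: in 40 of the 112 rises no 18 h array was well above background, and in 5 no array at either time.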

Other observations

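Some genes that rose in OA mice had no positive change in serum mice. Tktl1, a transketolase-like protein, had changes of 1.23 in OA mice and -0.19 in serum mice, Ibtk, an inhibitor of a B cell kinase, 1.09 and -0.75, and Smarcd1, a subunit of a chromatin remodeling complex, 1.41 and -0.04. These 3 were picked after their values were seen, and no clone passed the test of the difference between OA and serum. Srm, the spermidine synthase, and Azin1, which raises polyamine synthesis, both rose, by 0.98 (adjusted p = 0.00446) and 1.32 (adjusted p = 0.0357), and they too were picked after their values were seen. Of the 127 clones, Tfdp2 and Srm were the 2 that passed in every alternative in which they were tested, leaving out each OA mouse included.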
